A study of Mus musculus with 6 samples.

Results

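The muscle metabolic genes described here are 8 genes whose products supply energy or oxygen to contracting muscle, together with brain-type creatine kinase as a contrast. They are Ckm, Ckb, Eno3, Pgam2, Pfkm, Pygm, Ampd1, Mb and Fabp3. They were chosen by gene symbol and role, at a time when earlier results of these data were known, and every probe that the platform annotation assigns to them was taken. They are 9 of the 16593 genes with a probe on the array, and 13 of its 25697 probes. Of the 13, 8 probes of 6 genes were bright enough to be tested, and 5 probes were not, which left Ckm, Pygm and Ampd1 without a tested probe.

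Hindlimb buds were taken from E12.5 mouse embryos (strain label SV129) out of matings of Pitx1+/- mice. The 3 Pitx1 knockout samples carried the genotype PITX1-/- and the 3 wild-type samples PITX1+/+. Embryos were genotyped by PCR on tail DNA, and no other allele or treatment is named. The labels do not say which part of Pitx1 is deleted, nor whether a sample is 1 embryo or a pool, so p-values measure the spread between samples. Pitx1 is a homeodomain transcription factor of the hindlimb, and the comparison asks which transcripts differ in its absence. Each sample was hybridised, as biotinylated cRNA, to its own Illumina bead array, where every probe gave an intensity in arbitrary units that could lie below 0.

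A working muscle rebuilds ATP by several routes. Creatine kinase moves phosphate from phosphocreatine to ADP, glycogen phosphorylase releases glucose units that pass through glycolysis, and AMP deaminase removes AMP in the purine nucleotide cycle, while myoglobin binds oxygen and the heart-type fatty acid binding protein carries fatty acids. Most of these steps have a muscle isozyme and other isozymes used elsewhere in the body. In developing muscle, creatine kinase is known to pass from the brain-type to the muscle-type subunit as fibres mature, and enolase from the alpha to the beta form.

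A few facts of the whole series bear on these genes. A probe was counted as above background at 14.3 units, and the 13715 probes that exceeded it on 3 or more arrays were tested together. Pitx1 itself averaged 76.5 ± 1.6 units in knockout and 139.6 ± 14.7 units in wild type (SD, n = 3 each; log2 fold change -0.51, adjusted p = 0.038, limma with Benjamini-Hochberg adjustment). The call was kept without knockout replicate 1 (adjusted p = 0.048). It was lost without any other array (0.063 to 0.30), with an offset of 16 (0.074) and with a floor at the background threshold (0.20). The offset, added before log2 was taken, narrows changes at this level, so the log2 fold change of -0.51 does not limit the true ratio. Of the 9 limb bud markers, 8 were tested, and Tbx5, the forelimb factor, was not above background on any array. Knockout replicate 3 stood apart, at 22.3 on the first principal component (44.2% of the variance), where the remaining 5 arrays ranged from -8.9 to 1.4. Results that rest on it are given below with and without it.

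No probe of the muscle metabolic genes passed an adjusted p of 0.05 in either direction. Of the 8 tested, 0 passed in limma and 3 had an unadjusted p under 0.05, namely those of Pgam2, Fabp3 and Ckb, which are also the probes for which every knockout value lay below every wild-type value. Across all probes tested, 0.219% passed the adjusted threshold in either direction, 0.153% passed it with knockout lower and 8.04% had an unadjusted p under 0.05. The genotypes did not overlap, with knockout lower, for 6.58% of all probes. The other 5 probes, of Eno3, Pfkm and Mb, overlapped between genotypes. The median log2 fold change was -0.04 over the 8 probes and 0.01 over all probes tested. With the brightest probe for each gene, the median over the 6 genes was -0.18, since 3 of the 8 probes belong to Pfkm. As bulk samples were measured, fewer muscle cells and less RNA per muscle cell cannot be told apart.

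**Figure D1:**
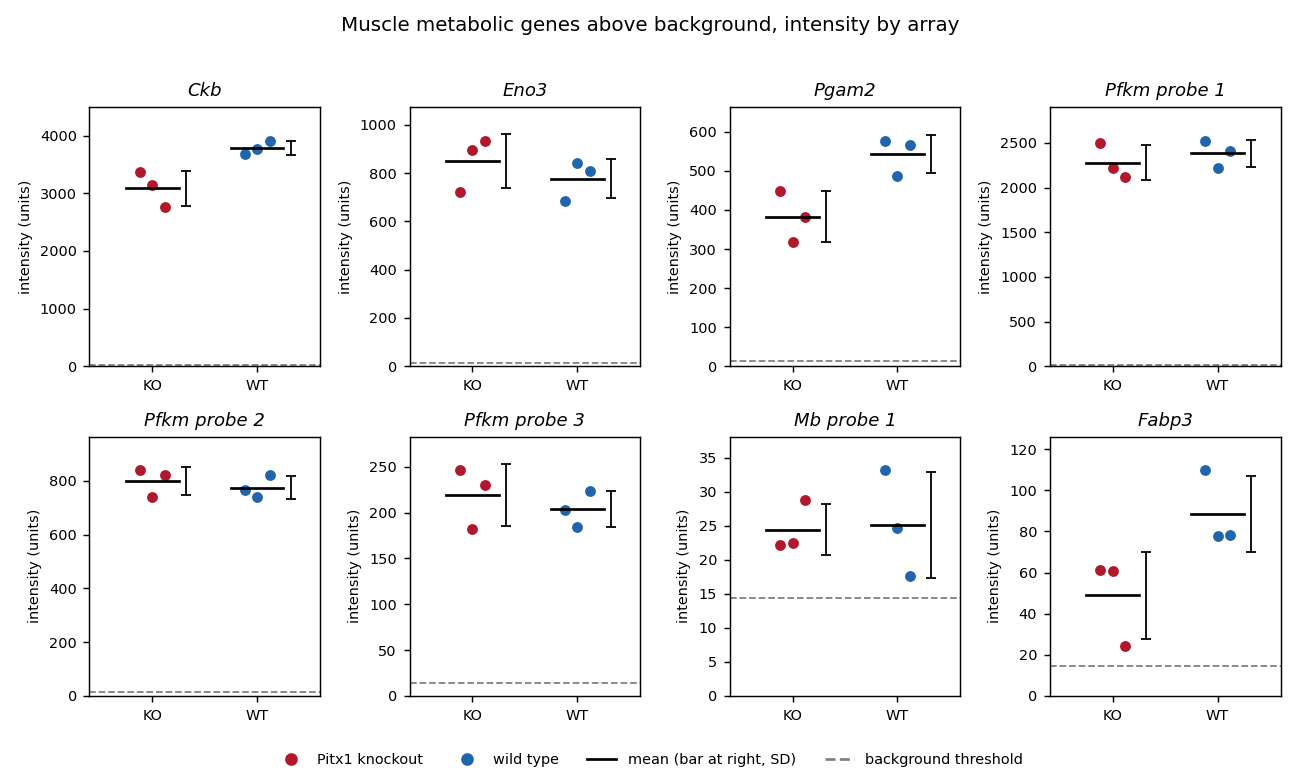
Intensity in arbitrary units of the 8 tested probes in the 3 Pitx1 knockout (KO, red) and 3 wild-type (WT, blue) arrays; horizontal lines are means, bars at the right are SD, and the dashed line is the background threshold of 14.3 units. Ckb, Pgam2 and Fabp3 show no overlap, with knockout lower, and the other 5 probes overlap.

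The phosphocreatine system was represented by the brain-type subunit. Ckm, the muscle-type creatine kinase, had a single probe, which read -10.1, -4.8 and -21.6 units in knockout replicates 1, 2 and 3 and -12.3, -13.0 and -18.6 units in wild-type replicates 1, 2 and 3. All 6 values lay below 0, so Ckm was not above background in either genotype and no fold is given. Ckb, the brain-type subunit, read 3361, 3138 and 2758 units in the 3 knockout samples and 3687, 3760 and 3909 units in the 3 wild-type samples. The genotypes did not overlap, and knockout replicate 3 was the lowest of the 6. Ckb averaged 3086 ± 305 units in knockout and 3785 ± 113 units in wild type (SD, n = 3 each), 18.5% lower in knockout, but its log2 fold change of -0.29 ± 0.10 (SE, 95% interval -0.50 to -0.09) missed the threshold (adjusted p = 0.41, limma). Without knockout replicate 3 it was -0.22 (adjusted p = 0.96). Of the mitochondrial creatine kinases, Ckmt1, the ubiquitous form, averaged 30.6 ± 9.4 units in knockout and 28.7 ± 7.4 units in wild type (log2 fold change 0.03, adjusted p = 0.96). Ckmt2, the sarcomeric form, was above 14.3 units on 1 of the 6 arrays, wild-type replicate 3 at 15.3 units, and was not tested. Ckb is also abundant in neurons. Of the 14 neuron and glia markers, 10 had a probe, of which Stmn2 and Nefm were tested and 4 were above background on no array, among them Nefl and Prph. The mean log2 level of Stmn2 and Nefm relative to wild type ran from -0.28 to 0.09 in knockout and from -0.21 to 0.16 in wild type, and its part in the Ckb values was not tested.

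Among the glycolytic members, Pgam2 was lower in knockout while Eno3 and Pfkm overlapped between genotypes. Pgam2 encodes the muscle subunit of phosphoglycerate mutase, which converts 3-phosphoglycerate to 2-phosphoglycerate. It read 448.6, 317.1 and 382.2 units in knockout replicates 1, 2 and 3 and 576.8, 487.4 and 565.2 units in wild-type replicates 1, 2 and 3. The lowest value was that of knockout replicate 2, and the highest knockout value lay below the lowest wild-type value. Pgam2 averaged 382.6 ± 65.8 units in knockout and 543.1 ± 48.6 units in wild type (SD, n = 3 each), 29.6% lower in knockout. Its log2 fold change of -0.44 ± 0.11 (SE, 95% interval -0.69 to -0.20) had the smallest p among these genes, at an unadjusted p of 0.0017 and an adjusted p of 0.19 (limma), which ranked 118 among the 13715 probes. Without knockout replicate 3 the value was -0.45 (adjusted p = 0.40).

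Eno3 encodes beta-enolase, the muscle form of the enzyme that acts next after the mutase. It read 721.4, 895.2 and 933.1 units in the knockout samples and 683.6, 839.4 and 808.3 units in the wild-type samples. Knockout replicates 2 and 3 were above all 3 wild-type samples, and knockout replicate 1 was within their range. Eno3 averaged 849.9 ± 112.9 units in knockout and 777.1 ± 82.4 units in wild type, which gave a log2 fold change of 0.12 with an SE of 0.11 (adjusted p = 0.81, limma). Its 95% interval of -0.12 to 0.36 excludes a log2 decrease as large as the -0.44 measured for Pgam2. The difference between Pgam2 and Eno3 was itself not tested.

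Pfkm encodes the muscle form of phosphofructokinase, the main control point of glycolysis, and had 3 probes, numbered here by brightness. Probe 1 read 2502, 2221 and 2117 units in knockout and 2523, 2221 and 2406 units in wild type. Its log2 fold change was -0.06 ± 0.10 (SE, 95% interval -0.27 to 0.14, adjusted p = 0.88, limma). Probe 2 gave 0.04, with 800.6 ± 52.0 units in knockout and 774.7 ± 41.9 units in wild type. Probe 3 gave 0.07, with 219.3 ± 33.5 units in knockout and 203.9 ± 19.5 units in wild type (adjusted p = 0.92 and 0.87 for probes 2 and 3). The 3 probes thus differed in sign, all intervals included 0, and their intervals ran together from -0.27 to 0.30.

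The muscle isoforms of glycogen phosphorylase and AMP deaminase were below or near background. Pygm, the muscle glycogen phosphorylase, read -0.9, 4.3 and 4.4 units in knockout and -1.7, -2.6 and -0.8 units in wild type, and none of the 6 arrays reached 14.3 units. Ampd1, the muscle AMP deaminase, had 2 probes. The brighter read 4.6, 19.5 and 13.6 units in knockout and 11.3, 10.8 and 25.7 units in wild type, above background on 1 array of each genotype. The dimmer lay between -4.9 and 4.9 units on all 6 arrays. No fold is given for either gene.

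**Figure D2:**
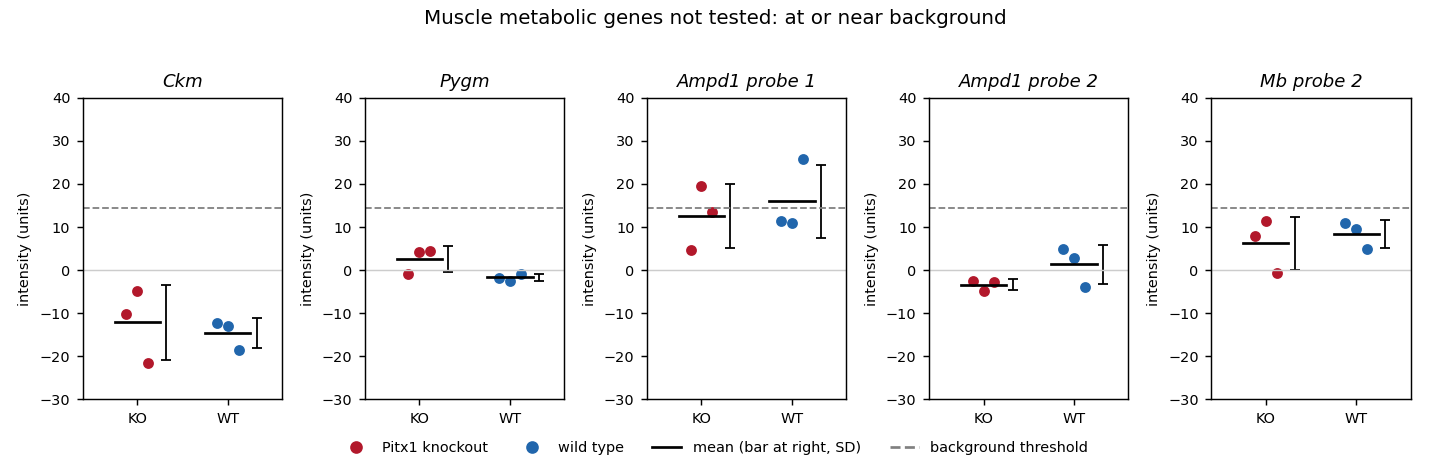
Intensity in arbitrary units of the 5 probes that were not tested, in 3 knockout (KO, red) and 3 wild-type (WT, blue) arrays; horizontal lines are means, bars at the right are SD and the dashed line is the background threshold of 14.3 units. Ckm lies below 0 on all 6 arrays, and only the brighter Ampd1 probe crosses the threshold, on 1 array of each genotype.

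Myoglobin was close to background in both genotypes. Of the 2 Mb probes, the brighter read 22.1, 22.4 and 28.7 units in knockout and 33.1, 24.7 and 17.6 units in wild type. These values were above 14.3 units on all 6 arrays and overlapped between genotypes. The log2 fold change was -0.01 ± 0.09 (SE, 95% interval -0.21 to 0.19, adjusted p = 0.99, limma). An offset of 50 units stands under each log2 value and narrows changes at this level, so the interval does not limit the true ratio. The dimmer probe lay between -0.6 and 11.4 units and was not tested.

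Fabp3, the heart-type fatty acid binding protein, which is also made by skeletal muscle, was lower in knockout. It read 61.2, 60.9 and 24.4 units in knockout replicates 1, 2 and 3 and 109.7, 77.6 and 78.1 units in wild-type replicates 1, 2 and 3. Knockout replicate 3 was the lowest and wild-type replicate 1 the highest, and the genotypes did not overlap. Fabp3 averaged 48.9 ± 21.1 units in knockout and 88.5 ± 18.4 units in wild type (SD, n = 3 each), 44.8% lower in knockout. Its log2 fold change of -0.42 ± 0.13 (SE, 95% interval -0.69 to -0.14) missed the threshold (unadjusted p = 0.0062, adjusted p = 0.37, limma). Without knockout replicate 3 it was -0.26 (adjusted p = 0.89), and with intensities set to a floor at the background threshold in place of the offset it was -0.96 (adjusted p = 0.67). The offset narrows changes at this level too, so the 95% interval of -0.69 to -0.14 does not limit the true ratio for Fabp3. Mb and Fabp3 are also heart genes. All 10 heart markers with a probe, Nppa, Myl7 and Nkx2-5 among them, were above background on none of the 6 arrays.

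**Figure D3:**
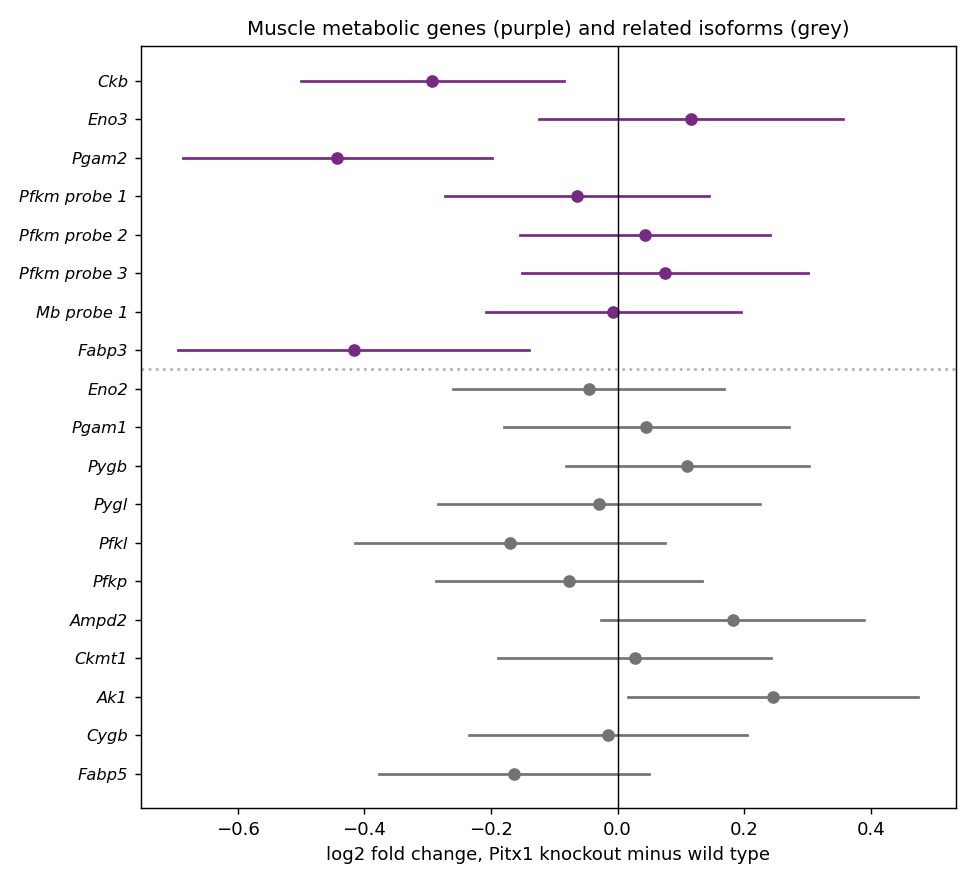
Log2 fold change (Pitx1 knockout minus wild type) of the 8 tested probes (purple) and of 11 tested related isoforms (grey); points are limma estimates and lines are 95% intervals. The unadjusted intervals of Ckb, Pgam2 and Fabp3 lie below 0 and that of Ak1 above 0, and none passed after adjustment over 13715 probes. The offset narrows changes of dim probes such as those of Mb and Fabp3, so their intervals do not limit the true ratio.

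The promoters of Pgam2, Fabp3 and Ckb are shown because these are the members whose genotypes did not overlap, with that of Ckm, which was not above background, for contrast. The sequences are from RefSeq on GRCm38.p6, each with 250 bases before and 50 after an annotated start, written in the direction of transcription. Capitals mark matches to the E-box CANNTG, the site class of myogenic bHLH factors, and to the consensus of MEF2, a factor family that acts with them. Both strands were searched.
Pgam2 promoter, chr11:5803747-5804046, minus strand: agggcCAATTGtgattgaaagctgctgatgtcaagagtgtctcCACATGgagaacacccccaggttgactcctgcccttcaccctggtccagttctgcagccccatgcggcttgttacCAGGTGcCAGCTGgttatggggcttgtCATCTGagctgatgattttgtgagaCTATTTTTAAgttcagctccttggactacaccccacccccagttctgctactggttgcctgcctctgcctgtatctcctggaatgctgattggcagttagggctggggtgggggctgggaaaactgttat
Fabp3 promoter, chr4:130308488-130308787, plus strand: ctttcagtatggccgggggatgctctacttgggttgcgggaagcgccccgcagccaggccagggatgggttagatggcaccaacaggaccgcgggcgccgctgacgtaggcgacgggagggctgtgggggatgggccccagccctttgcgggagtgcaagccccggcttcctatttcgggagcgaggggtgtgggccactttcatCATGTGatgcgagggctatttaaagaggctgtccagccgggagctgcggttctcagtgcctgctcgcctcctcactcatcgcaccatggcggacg
Ckb promoter, chr12:111672289-111672588, minus strand: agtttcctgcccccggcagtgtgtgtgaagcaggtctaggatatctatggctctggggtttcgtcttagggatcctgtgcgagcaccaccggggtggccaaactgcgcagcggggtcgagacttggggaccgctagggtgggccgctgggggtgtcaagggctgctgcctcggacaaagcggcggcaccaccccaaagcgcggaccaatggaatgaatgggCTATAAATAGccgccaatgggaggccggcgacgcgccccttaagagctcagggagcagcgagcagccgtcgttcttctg
Ckm promoter, chr7:19410844-19411143, plus strand: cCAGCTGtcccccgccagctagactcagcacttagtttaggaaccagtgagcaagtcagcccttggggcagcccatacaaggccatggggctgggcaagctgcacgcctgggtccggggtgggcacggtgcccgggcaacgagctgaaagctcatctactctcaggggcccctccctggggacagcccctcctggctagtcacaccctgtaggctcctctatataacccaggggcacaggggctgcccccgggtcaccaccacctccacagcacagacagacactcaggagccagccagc
Pgam2 holds 5 E-boxes, of which that starting at -125 has the CAGCTG form preferred by myogenic factors, and a MEF2 match starting at -80. Fabp3 holds 1 E-box, starting at -45, and no MEF2 match. Ckb holds no E-box and a MEF2 match starting at -29 that includes the TATAAA letters of a TATA box. Ckm holds 1 E-box in this window, starting at -249, also of the CAGCTG form.

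Of the 9 genes, 8 had a promoter in the RefSeq table, with 13 promoters in all, several of them overlapping starts of Pfkm and Mb. An E-box was found in 11 of the 13 promoters and in 72.3% of all 32851 promoters of the same length. The CAGCTG form, which is a subset of CANNTG, was found in 6 of the 13, in Ckm, Eno3, Pgam2, Pygm and Mb, and in 16.3% of all promoters. The MEF2 consensus was found in 2 of the 13 and in 3.19% of all. TAATCC, a site class bound by bicoid-type homeodomain proteins such as Pitx1, was found in 1 of the 13, a Pfkm promoter, and in 7.06% of all. These matches describe letters in a short window and bear on no factor's binding.

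Related isoforms did not pass the test in either direction, where 0.22% of all 9535 genes tested fell and 0.0524% rose. Of 16 related genes, 15 had a probe and 11 were tested, of which 6 had a log2 fold change below 0 and 5 above 0, with a median of -0.01, and 1 had an unadjusted p under 0.05 (limma). That gene was Ak1, a cytosolic adenylate kinase abundant in muscle, with 79.8 ± 6.7 units in knockout and 56.7 ± 17.3 units in wild type (log2 fold change 0.25 ± 0.11 SE, adjusted p = 0.60). Ampd2, the AMP deaminase of non-muscle tissues, averaged 189.5 ± 26.7 units in knockout and 157.8 ± 5.5 units in wild type (log2 fold change 0.18, adjusted p = 0.66), with no overlap between genotypes. Ampd3 was above background on no array. Pygl and Pygb, the liver and brain glycogen phosphorylases, were measured on all 6 arrays where Pygm was not, with log2 fold changes of -0.03 and 0.11 (adjusted p = 0.96 and 0.77). Eno2, the neuronal enolase, gave -0.05 (adjusted p = 0.92), and Eno1 had no probe under that symbol.

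Each muscle gene was also set against its counterpart within each array, so that a shift common to both drops out. Of 11 pairs listed, 5 had both genes tested. Groups of 3 against 3 cannot give an exact two-sided permutation p under 0.1, so none of these differences could pass. The log2 difference Pgam2 minus Pgam1, the non-muscle mutase, was -1.28, -1.58 and -1.57 in the 3 knockout samples and -0.74, -1.13 and -1.10 in the 3 wild-type samples. All 3 knockout values lay below all 3 wild-type values, by 0.49 on average (exact permutation p = 0.1, 0.5 after adjustment over the 5 pairs). Pgam1 itself averaged 1188 ± 93 units in knockout and 1152 ± 138 units in wild type (log2 fold change 0.05 ± 0.10 SE, adjusted p = 0.92, limma).

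For Fabp3 minus Fabp5, the epidermal fatty acid binding protein, the knockout mean was 0.25 below the wild-type mean and the genotypes overlapped (exact permutation p = 0.3, 0.75 adjusted). The difference was -0.15 without knockout replicate 3, and ran from -0.36 to -0.15 with each array left out. Fabp5 itself averaged 15.4 ± 5.5 units in knockout and 26.2 ± 9.1 units in wild type, near the background threshold. The offset narrowed its log2 fold change of -0.16 (adjusted p = 0.70, limma) more than that of Fabp3. The pair difference therefore does not show a larger fall in ratio for Fabp3. Pfkm minus Pfkl, the liver phosphofructokinase, differed by 0.11 between genotypes, and Pfkm minus Pfkp, the platelet form, by 0.01 (exact permutation p = 0.7 and 1). Pfkl and Pfkp themselves gave log2 fold changes of -0.17 and -0.08 (adjusted p = 0.72 and 0.86, limma). The 2 tested Pfkp probes differed in sign, as did those of Pfkm, of which probe 1 stands in both pairs. Pair differences with the dimmer probes were not computed. Mb minus Cygb, a widely expressed globin, differed by 0.01 (exact permutation p = 0.9), and Cygb itself gave -0.01 (adjusted p = 0.98, limma).

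**Figure D4:**
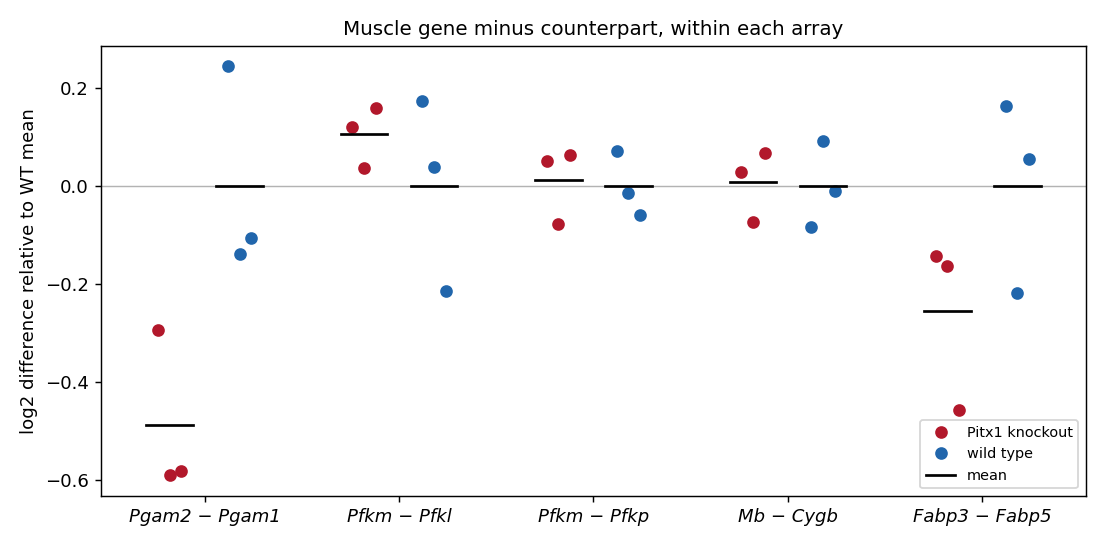
Log2 intensity of each muscle gene minus its counterpart within each array, relative to the wild-type mean, for 3 knockout (red, left in each pair) and 3 wild-type (blue) arrays; lines are means. Pgam2 minus Pgam1 is the pair without overlap, with knockout lower, and the other 4 pairs overlap.

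No gene tested in the wider energy pathways passed. Of all 9535 genes tested, 0.22% fell and 0.0524% rose, and 810 had an unadjusted p under 0.05 (limma). Counts of 0 passing in lists this short are near that share and do not show that the pathways were unchanged. Of 19 glycolysis genes, 15 were tested, 0 passed in limma in either direction and 0 had an unadjusted p under 0.05, with a median log2 fold change of 0.01. Pkm, pyruvate kinase, gave 0.18 (adjusted p = 0.65) and Hk2, a hexokinase of insulin-sensitive tissues, gave -0.17 (adjusted p = 0.68). Of 19 glycogen genes, 13 were tested, 0 passed and 0 had an unadjusted p under 0.05, with a median of -0.09. Gaa, the lysosomal glucosidase that breaks down glycogen, gave -0.23 (adjusted p = 0.67), and Phkg2, a phosphorylase kinase subunit, gave 0.17 (adjusted p = 0.72). Of 14 fatty acid genes, 9 were tested, 0 passed and 0 had an unadjusted p under 0.05, with a median of 0.04. Slc25a20, the mitochondrial carnitine carrier, gave -0.20 and Acadl, an acyl-CoA dehydrogenase, gave 0.17 (adjusted p = 0.67 for each).

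Of 14 purine nucleotide genes, 10 were tested and 0 passed in limma, with a median of 0.06, and 2 had an unadjusted p under 0.05. They were Ak1 and Adssl1, the muscle adenylosuccinate synthetase, which works in the purine nucleotide cycle beside Ampd1. Adssl1 read 412.3, 381.1 and 305.4 units in knockout replicates 1, 2 and 3 and 457.8, 445.9 and 492.2 units in wild-type replicates 1, 2 and 3. The genotypes did not overlap, knockout replicate 3 was lowest, and the log2 fold change was -0.30 ± 0.10 (SE, adjusted p = 0.45, limma), or -0.20 without that array (adjusted p = 0.99). All 3 of its probes gave a log2 fold change below 0.

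Skeletal muscle markers, most of them contractile genes, were lower in knockout, with Myod1 as an exception. Of 20 skeletal muscle markers, 18 were tested, of which 9 fell and 0 rose by the same limma fit, leaving 9 that did not pass. Of all 9535 genes tested, 0.22% fell by that fit, and 810 had an unadjusted p under 0.05 in either direction. The median log2 fold change of the 18 markers was -1.04, and all 18 lay below 0, where 50.2% of all genes tested did. The genotypes did not overlap, with knockout lower, for 17 of the 18 and for 698 of all 9535 genes tested. Myod1 overlapped, at 38.1 ± 26.5 units in knockout and 42.7 ± 3.4 units in wild type (log2 fold change -0.09, adjusted p = 0.89, limma). Myf5 was above background on no array. The count of 9 depended on the arrays and on the background step. It was 14, 9 and 11 without knockout replicates 1, 2 and 3, and 1, 2 and 0 without wild-type replicates 1, 2 and 3, with 17 of the 18 lower at an unadjusted p under 0.05 each time (limma). It was 2 with an offset of 16, 0 with a floor at the background threshold (17 at an unadjusted p under 0.05), 3 with the trend and robust variance model and 14 with the replicate block. Without knockout replicate 3 the median was -0.87. Actn2 and Acta1, of the Z-disc and thin filament, gave log2 fold changes of -1.32 and -1.91 (adjusted p = 0.0029 and 0.017), and neither passed without wild-type replicate 3 (0.0502 and 0.085) or with the floor (0.31 and 0.48). Acta1 was also lost without wild-type replicate 1 or 2, with an offset of 16 and with the trend and robust variance model (adjusted p of 0.060 to 0.42, limma). This marker list was chosen with earlier results of these data known and is no independent evidence of direction. Relative to the wild-type mean, the list averaged -0.70, -0.91 and -1.67 on the log2 scale in knockout replicates 1, 2 and 3, and lay between -0.11 and 0.13 in wild type. Knockout replicate 3 was thus lowest for the markers, as it was for Fabp3, Ckb, Adssl1 and Pfkm probe 1, while Pgam2 was lowest in knockout replicate 2. For Eno3, knockout replicate 3 was the highest of the 6 arrays (933.1 units). For the brighter Mb probe it was the highest in knockout (28.7 units). For Pfkm probes 2 and 3 it lay between knockout replicates 1 and 2. Of 10 erythroid markers tested, 1 rose (Nfe2, log2 fold change 0.63, adjusted p = 0.046, limma) and 9 did not pass, where 0.0524% of all genes tested rose. Their median log2 fold change was 0.44, and their mean level ran from 0.22 to 0.42 in knockout and from -0.07 to 0.08 in wild type. Without knockout replicate 3, Nfe2 no longer passed (log2 fold change 0.55, adjusted p = 0.13, limma) and the list median was 0.40. The erythroid count was also 0 without knockout replicate 2 and without any of the wild-type replicates. It was 0 with an offset of 16, the floor, array weights or only probes above background on all 6 arrays. It was 4 without knockout replicate 1, 4 with the replicate block and 2 with the trend and robust variance model. The part of either marker list in the values of the metabolic genes was not tested.

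**Figure D5:**
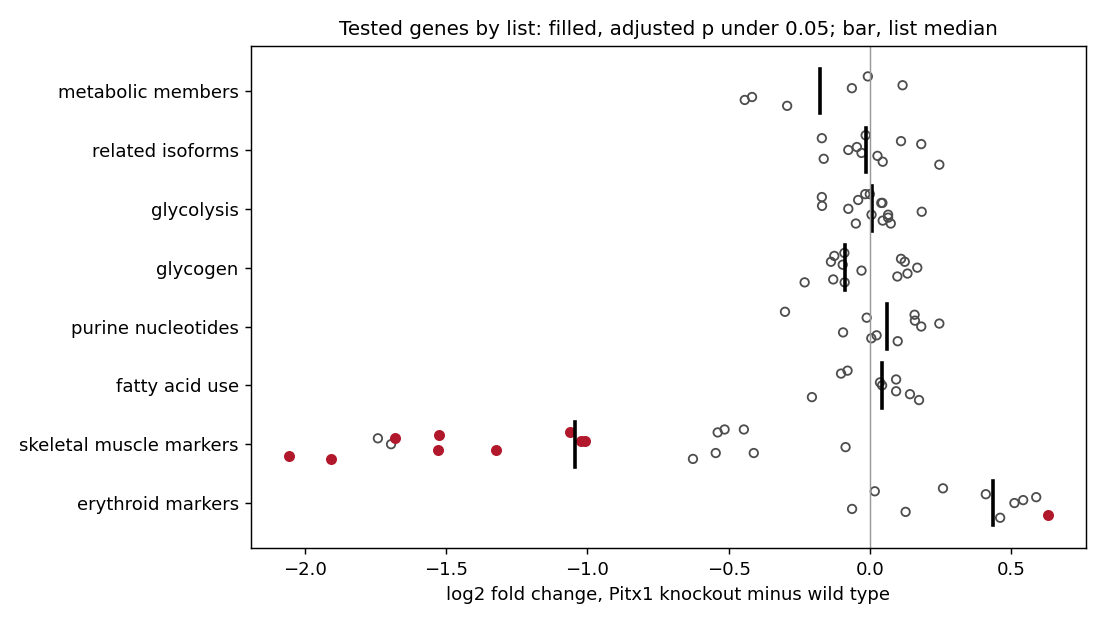
Log2 fold change (Pitx1 knockout minus wild type) of every tested gene of 8 lists, 1 point per gene; filled points have an adjusted p under 0.05 and the black bar is the list median. The 6 metabolic members lie between -0.44 and 0.12, and the skeletal muscle markers between -2.05 and -0.09 with a median of -1.04.

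The mean profile of the 5 tested genes other than Ckb, each centred on its own mean, was -0.03, -0.09 and -0.12 in the knockout samples and 0.14, 0.04 and 0.07 in the wild-type samples on the log2 scale. Among all other genes tested, those whose log2 values followed this profile most closely over the 6 arrays were Epn2, Prss35, Cdh4, Nlrx1 and Larp6, with Pearson correlations of 0.986 to 0.993. The 6 arrays fall into 2 genotypes that all these genes share, so the correlations are a description only. Prss35, which encodes a serine protease-like protein, averaged 41.3 ± 13.1 units in knockout and 107.8 ± 28.8 units in wild type, which gave a log2 fold change of -0.66 with an SE of 0.12 (adjusted p = 0.051, limma, and 0.14 without knockout replicate 3). Epn2, an endocytic adaptor, averaged 402.9 ± 19.4 units in knockout and 512.4 ± 41.3 units in wild type (adjusted p = 0.37). Larp6, an RNA-binding protein of collagen transcripts, averaged 83.4 ± 7.2 units in knockout and 135.4 ± 14.8 units in wild type (adjusted p = 0.12). Nlrx1 averaged 39.1 units in knockout and 67.1 units in wild type (log2 fold change -0.32, adjusted p = 0.33). Cdh4, a cadherin, was not above background on any knockout array and read 23.2 to 31.1 units in wild type.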

How the data were processed

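RNA of 6 hindlimb bud samples, 3 Pitx1 knockout and 3 wild type, was measured on Illumina bead arrays. Trizol extraction and an Ambion MessageAmp kit gave the labelled cRNA, per the labels' protocols. The deposited value table holds linear intensities, of which 27.9% lie below 0, and its columns have nearly the same distribution (sorted values differ by at most 1.09 units). The background method and normalization the authors used are not given in the sources used here. A second table was not used, since its 12 value columns match no single sample's labels. The planned fit was kept: normexp with an offset of 50 and log2 (limma 3.58.1, R 4.3.3), then lmFit and eBayes with genotype as the only term, two-sided, with Benjamini-Hochberg adjustment over the 13715 probes tested. The offset narrows the log2 fold changes of dim probes, so these values and their intervals do not limit the true ratio. Background was 1.64 times the root mean square of the values below 0. The fit was tested on simulated data. Symbols come from the platform's annotation and were brought to RefSeq's current ones by Entrez identifier (23962 of 25697 probes matched). The probe with the highest mean stood for a gene in the lists and pairs. Cross-hybridisation between isoforms was not tested, for want of probe sequences. Precision is limited by having 3 arrays a genotype.

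The 9 genes and all lists were chosen with earlier results of these data known. Named are every member and every gene of the isoform pairs, up to 4 genes of smallest p per list, the 5 genes of most similar profile and Pitx1. Genes named to show which probes were below background, with Ckmt1, Ckmt2, Eno2 and Myod1, were chosen after their values were seen. Alternatives covered the offset, the background step, the normalization, the filter, a replicate block, array weights, the variance model, averaging over the probes of a gene and leaving out each array. Quantile normalization could change little, as the columns already had nearly the same distribution. Marker counts and the Pitx1, Actn2 and Acta1 calls under these alternatives were added after seeing the data. No arrays were identical (Pearson correlations of 0.989 to 0.996). Figures were drawn with matplotlib 3.10.9.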

Additional observations from a re-analysis of the deposited data

How the results depend on the processing

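Across all 16 alternatives, 0 probes of the muscle metabolic genes passed in limma, where 3 reached an unadjusted p under 0.05 every time. Pgam2, Fabp3, Ckb and Eno3 kept their direction in all 16, with log2 fold changes of -0.55 to -0.34, -0.96 to -0.26, -0.36 to -0.22 and 0.03 to 0.22. Leaving out or weighting arrays, or setting a floor, could not reverse the first 3, whose genotypes did not overlap. The filter, the replicate block and the variance model leave a log2 fold change as it is. So does averaging over probes for these genes, which have a single probe each. For the first 3, the kept direction is therefore no separate evidence. The smallest adjusted p was 0.053, for Pgam2 with the replicate block and, at 0.054, without knockout replicate 1. Pfkm probe 1 changed sign, to 0.018, with the mean over its probes, and Mb ranged from -0.063 to 0.051 with an array left out, values that all lie within their intervals. The count over all probes, 30, was 8 with an offset of 16, 0 with the floor at the background threshold (951 at an unadjusted p under 0.05) and 84 with the replicate block. It ran from 0 to 91 with an array left out: 91, 48 and 32 without knockout replicates 1, 2 and 3, and 3, 4 and 0 without wild-type replicates 1, 2 and 3. The cause was not tested. The labels give the replicate numbers no meaning, so the planned fit did not take them as pairs. After each genotype's mean was subtracted from every probe, same-numbered samples correlated at 0.23, 0.17 and -0.07. By that measure, 4 of 6 samples were closest to their own number in the other genotype. Each sample had only 3 candidates, so some matches would arise without any pairing. Whether the numbers mark pairs was not tested, and the replicate block is given as an alternative. With an array left out, the smaller pair differences did not keep their sign. Pgam2 minus Pgam1 ran from -0.59 to -0.37, Fabp3 minus Fabp5 from -0.36 to -0.15, Pfkm minus Pfkl from -0.00063 (without wild-type replicate 3) to 0.19, Pfkm minus Pfkp from -0.017 to 0.057, and Mb minus Cygb from -0.034 to 0.054. Signal over background limits Mb, Fabp3, Ckm, Pygm and Ampd1.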
